A study of Mus musculus with 124 samples.

Results

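The ubiquitin-specific protease (Usp) genes are described here across oocytes, blastocysts and offspring brain of mice exposed to the ovulation trigger hormone human chorionic gonadotropin (hCG). The members were all gene symbols made of Usp and a number, with an optional x or l at the end. The rule found 49 members in each of 3 tables, of 27016 symbols in oocytes, 25239 in blastocysts and 24409 in brain. The family was picked because one member, Usp34, had been lower in hCG than in Ctrl in both blastocysts and brain. The values of Usp34 in those materials are therefore given as a description with no test, and Usp34 is left out of the counts, medians and correlations over the members there. 10 other symbols that start with Usp fell outside the rule, among them the Y-linked Usp9y, Uspl1, Usp6nl and 5 copies of Usp17.

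Ubiquitin is a small protein that cells attach to other proteins to mark them for the proteasome, for sorting in endosomes or for signalling. Usp enzymes are cysteine proteases that take ubiquitin off again. They form the most numerous family of deubiquitinases in mammals, and single members differ in substrate and place in the cell. In oocytes and early embryos ubiquitin removal takes part in the turnover of maternal proteins, and in neurons it acts at synapses.

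The hCG group came from females in natural estrus injected intraperitoneally with 7.5 IU of hCG, with no PMSG priming. For oocytes, the Ctrl group came from estrous females housed with a vasectomised male. The matings that gave the blastocysts and offspring of either group are not described here. Metaphase II oocytes were taken from the oviduct 14 h after injection in the hCG group and on the morning of a vaginal plug in the Ctrl group, so mating was not matched between them, and hyaluronidase had freed them of cumulus cells. Blastocysts came from uterine flushing at embryonic day 3.5. The dorsal dentate gyrus (dDG), a hippocampal region rich in granule neurons, was dissected from offspring perfused at 8 weeks of age. The RNA libraries numbered 6 hCG and 6 Ctrl for oocytes, 28 hCG and 28 Ctrl for blastocysts and 6 hCG and 6 Ctrl for dDG. The labels do not say whether replicates came from separate animals, so the p-values measure the spread between samples. Strain and the number of litters are not given in the labels used here.

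Oocyte libraries held 2379861 to 6924189 counts, blastocyst libraries an estimated 3043231 to 10859379 reads and dDG libraries 14991582 to 17859654 expected counts. The summed level of 10 oocyte markers ran from 8868 to 10869 CPM (counts scaled to the library total) in hCG oocytes and from 9817 to 12844 CPM in Ctrl oocytes. Of 10 cumulus and granulosa markers, Amh was not in the oocyte table, Ptx3, Fshr, Foxl2 and Amhr2 were at 0 CPM in all 12 oocyte libraries, and Cyp19a1 was at 13.1 to 23.6 CPM; their sum ran from 15.6 to 24.3 CPM in hCG and from 13.7 to 22.3 CPM in Ctrl. In blastocysts the summed level of 10 trophectoderm markers ran from 2334 to 8634 CPM in hCG and from 1807 to 12057 CPM in Ctrl, and that of 8 inner cell mass markers from 183 to 806 CPM in hCG and from 150 to 768 CPM in Ctrl. In blastocysts, hCG libraries held 13549 ± 335 detected genes and Ctrl libraries 12968 ± 798 (SD, n = 28 each). 5 hCG blastocyst libraries held both Xist and Y-linked transcripts above 50 CPM, against 0 Ctrl libraries. In dDG, the hCG 6 library had a summed level of 10 choroid plexus and meningeal markers of 13468 CPM, against 81.2 to 302 CPM in the Ctrl libraries. The summed level of 10 granule neuron markers ran from 1601 to 2016 CPM in hCG dDG and from 1140 to 1819 CPM in Ctrl dDG. Its median was higher in hCG, at 1750 CPM against 1485 CPM in Ctrl. The summed level of 6 oligodendrocyte markers ran from 1058 to 2486 CPM in hCG dDG and from 1116 to 2776 CPM in Ctrl dDG. Its median was lower in hCG, at 1447 CPM against 2123 CPM in Ctrl. In blastocysts the summed level of 10 uterine, stromal and blood markers ran from 39.7 to 238 CPM in hCG and from 15.03 to 143 CPM in Ctrl. Results that rest on the libraries that stand apart are given with and without them, and the part of these markers in the results was not tested.

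Usp34 encodes a very large enzyme known from human cells to act on axin in the Wnt pathway. The annotation places the gene at chr11:23303185-23490560 on GRCm38. In dDG, Usp34 was at 111.8 to 125.1 CPM in the 6 hCG libraries (median 118.0) and at 130.8 to 146.9 CPM in the 6 Ctrl libraries (median 141.4). The groups did not overlap. In blastocysts its lowest, median and highest values were 49.7, 83.3 and 101.2 CPM in hCG, against 50.5, 107.8 and 175.8 CPM in Ctrl. All 28 hCG blastocysts lay below the Ctrl median, although the ranges overlapped and the lowest values of both groups were close. Whole blastocysts and dDG tissue are bulk samples, in which fewer cells of a type and less RNA per cell cannot be told apart.

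Promoter windows of 300 bases, from 250 before to 50 after an annotated start, were available from RefSeq (GRCm38.p6) for 37 of the 49 members. 4 are shown. They are Usp34, for which the family was picked, and Usp24, which was lower in hCG in both blastocysts and dDG. The others are Usp28, called higher in oocytes, and Usp19, called higher in dDG. All 4 lie on the plus strand, at chr11:23306645-23306944 (inside the annotated span of Usp34), chr4:106315963-106316262, chr9:48985135-48985434 and chr9:108490426-108490725. Capitals mark matches on either strand to the GC box GGGCGG, the CCAAT box CCAAT, the Ets motif CCGGAAG and the TATA box TATAAA.
Usp34: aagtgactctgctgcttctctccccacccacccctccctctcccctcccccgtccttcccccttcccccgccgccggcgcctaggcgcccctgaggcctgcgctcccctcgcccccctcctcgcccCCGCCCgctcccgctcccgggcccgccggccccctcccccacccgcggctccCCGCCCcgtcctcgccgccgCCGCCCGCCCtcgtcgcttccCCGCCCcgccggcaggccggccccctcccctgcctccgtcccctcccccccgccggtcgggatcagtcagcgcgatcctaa
Usp24: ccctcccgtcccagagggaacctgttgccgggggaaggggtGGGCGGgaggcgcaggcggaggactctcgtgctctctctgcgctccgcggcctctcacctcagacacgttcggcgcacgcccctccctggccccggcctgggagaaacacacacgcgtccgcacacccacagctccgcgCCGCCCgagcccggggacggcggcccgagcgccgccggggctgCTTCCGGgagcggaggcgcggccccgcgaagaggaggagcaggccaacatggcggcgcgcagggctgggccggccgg
Usp28: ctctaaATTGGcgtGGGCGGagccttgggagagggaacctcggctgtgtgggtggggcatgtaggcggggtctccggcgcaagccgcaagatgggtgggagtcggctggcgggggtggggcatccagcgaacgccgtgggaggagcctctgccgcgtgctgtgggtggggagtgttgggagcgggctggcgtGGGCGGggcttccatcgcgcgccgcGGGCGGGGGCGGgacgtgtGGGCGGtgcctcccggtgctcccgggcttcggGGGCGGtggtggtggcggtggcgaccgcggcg
Usp19: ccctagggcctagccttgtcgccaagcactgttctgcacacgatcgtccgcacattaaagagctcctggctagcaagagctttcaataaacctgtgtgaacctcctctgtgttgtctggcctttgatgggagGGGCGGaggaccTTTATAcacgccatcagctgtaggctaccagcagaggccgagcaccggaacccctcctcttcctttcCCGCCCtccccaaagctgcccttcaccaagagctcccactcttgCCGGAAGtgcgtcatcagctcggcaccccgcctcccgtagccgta
The Usp34, Usp24 and Usp28 windows are dense in CG dinucleotides, with 36, 39 and 35, and the Usp19 window holds 15. Over the 37 windows the median was 28 CG dinucleotides, against 7 over all 32851 RefSeq windows. The GC box was found in 70.3% of the Usp windows and 35.7% of all windows, and the Ets motif in 21.6% and 8.86%. TATAAA was found in 5.41% of the Usp windows and 13.6% of all windows, CCAAT in 24.3% and 37.4%, and the E-box CACGTG in 10.8% and 7.15%. Overlapping matches were each counted. The members are all annotated as protein-coding, and no comparison with the windows of protein-coding genes alone is given. A match describes the letters and does not show that a factor binds there.

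**Figure D1:**
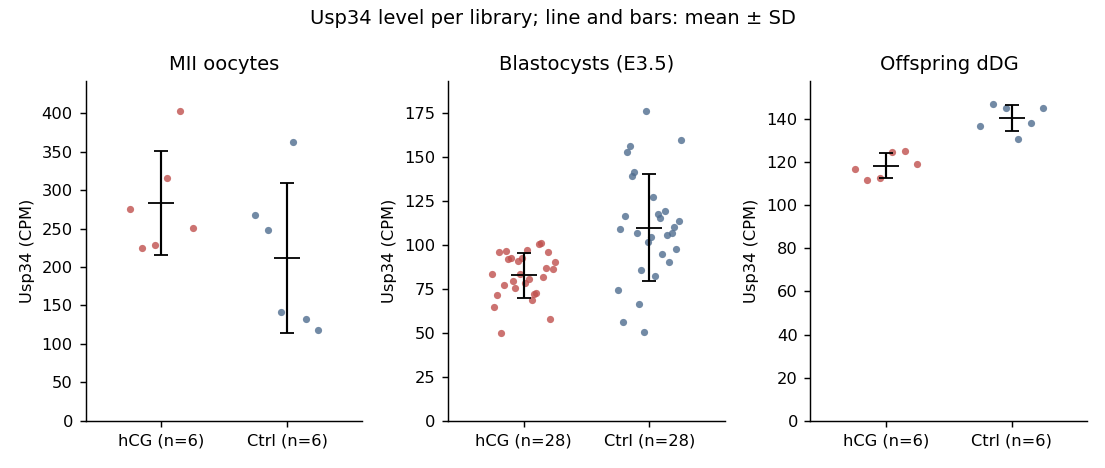
Usp34 level in CPM (y axis, from 0) for each library of the hCG and Ctrl groups (x axis) in oocytes, blastocysts and dDG; points are libraries, lines and bars the mean ± SD. In dDG all 6 hCG libraries lie below the 6 Ctrl libraries, in blastocysts the hCG libraries end at 101.2 CPM, and in oocytes the groups overlap.

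In oocytes, which the choice of the family did not use, Usp34 had 224.1 to 402.4 CPM in the 6 hCG libraries (median 263.5) and 117.9 to 363.0 CPM in the 6 Ctrl libraries (median 195.4). All 6 hCG libraries lay above the Ctrl median, but 3 Ctrl libraries were inside the hCG range. The Ctrl libraries fell into 3 values of 117.9 to 142.1 CPM and 3 of 248.8 to 363.0 CPM. Usp34 averaged 283 ± 67.5 CPM in hCG and 212 ± 97.3 CPM in Ctrl (SD, n = 6 each), a log2 fold change of 0.42 ± 0.22 (SE) that did not pass the threshold (edgeR quasi-likelihood test, Benjamini-Hochberg adjusted p = 0.325 over 9565 genes). Without Ctrl 2 and Ctrl 4, the libraries with the lowest total and the fewest genes detected among Ctrl, the log2 fold change was 0.76 ± 0.21 with an adjusted p of 0.0384. Both are among the 3 Ctrl libraries of higher Usp34, at 248.8 CPM in Ctrl 2 and 363.0 CPM in Ctrl 4. Leaving them out therefore lowers the Ctrl mean, and nothing further is read from this value. The corresponding differences that chose the gene, for description, were -0.40 ± 0.09 in blastocysts (82.7 ± 12.9 CPM in hCG and 109.8 ± 30.4 CPM in Ctrl, n = 28 each) and -0.23 ± 0.05 in dDG (118.3 ± 5.7 CPM in hCG and 140.4 ± 6.2 CPM in Ctrl, n = 6 each).

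The comparison of hCG with Ctrl oocytes asks whether ovulated eggs of the 2 groups differ in the measured levels of the Usp mRNAs. The groups also differ in mating and in how collection was timed, so the part of the hormone alone cannot be told apart. 2 members passed the test, Usp28 and Usp54, both higher in hCG. Of the 49 members, 42 passed the low-count filter; 2 were called higher, against 1.33% of all genes tested, and 0 were called lower, against 2.67%. 11 of the 42 had an unadjusted p under 0.05, against 18.9% of all genes. DESeq2, run as another tool, called 4 higher (Usp28, Usp54, Usp33 and Usp53) and 0 lower. The median log2 fold change of the 42 members was 0.17, against 0.0066 over all genes, with 29 positive and 13 negative. The summed level of the 49 members was 6421 ± 532 CPM in hCG and 5914 ± 631 CPM in Ctrl (SD, n = 6 each).

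Usp28, known from human cells to keep the Myc protein stable and to act with the DNA damage protein 53BP1, had lowest, median and highest values of 490.4, 603.8 and 738.5 CPM in hCG oocytes, against 374.6, 389.4 and 552.7 CPM in Ctrl oocytes. Every hCG library was above the Ctrl median, and the highest Ctrl library, Ctrl 4, reached into the hCG range. The log2 fold change was 0.52 ± 0.13 (SE; edgeR, adjusted p = 0.0342). The call was lost when any library other than Ctrl 4 or hCG 6 was left out, with an adjusted p of up to 0.0898 (without hCG 1).

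Usp54 had 18.8 to 29.2 CPM in hCG oocytes (median 23.3) and 7.8 to 16.8 CPM in Ctrl oocytes (median 13.7). The groups did not overlap. The log2 fold change was 0.86 ± 0.22 (edgeR, adjusted p = 0.0329), and the call was lost without any one of Ctrl 3, Ctrl 5, Ctrl 6, hCG 3, hCG 5 and hCG 6, with an adjusted p of up to 0.0762. Usp53 was the other oocyte member whose groups did not overlap, with 151.9 to 189.0 CPM in hCG and 118.2 to 141.7 CPM in Ctrl. Its log2 fold change of 0.35 ± 0.12 missed the threshold (adjusted p = 0.118). Groups lay apart, with hCG higher, for 1.13% of all genes tested.

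The most negative oocyte values belonged to members of low level or wide spread. Usp5, which takes apart free ubiquitin chains, averaged 2.95 ± 1.99 CPM in hCG and 7.37 ± 3.35 CPM in Ctrl, with a log2 fold change of -1.32 ± 0.45 (adjusted p = 0.116). Usp12 averaged 1.68 ± 1.96 CPM in hCG and 4.16 ± 2.71 CPM in Ctrl (-1.30 ± 0.72, edgeR adjusted p = 0.347). Usp11 averaged 3.20 ± 1.27 CPM in hCG and 5.42 ± 1.55 CPM in Ctrl (-0.77 ± 0.37, edgeR adjusted p = 0.263). Usp2, an enzyme linked to Mdm2 and to the circadian clock, averaged 365 ± 147 CPM in hCG and 565 ± 98.9 CPM in Ctrl, a log2 fold change of -0.64 ± 0.21 (adjusted p = 0.105). Without hCG 2 the Usp2 difference was -0.89 ± 0.18 and passed (adjusted p = 0.0091).

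**Figure D2:**
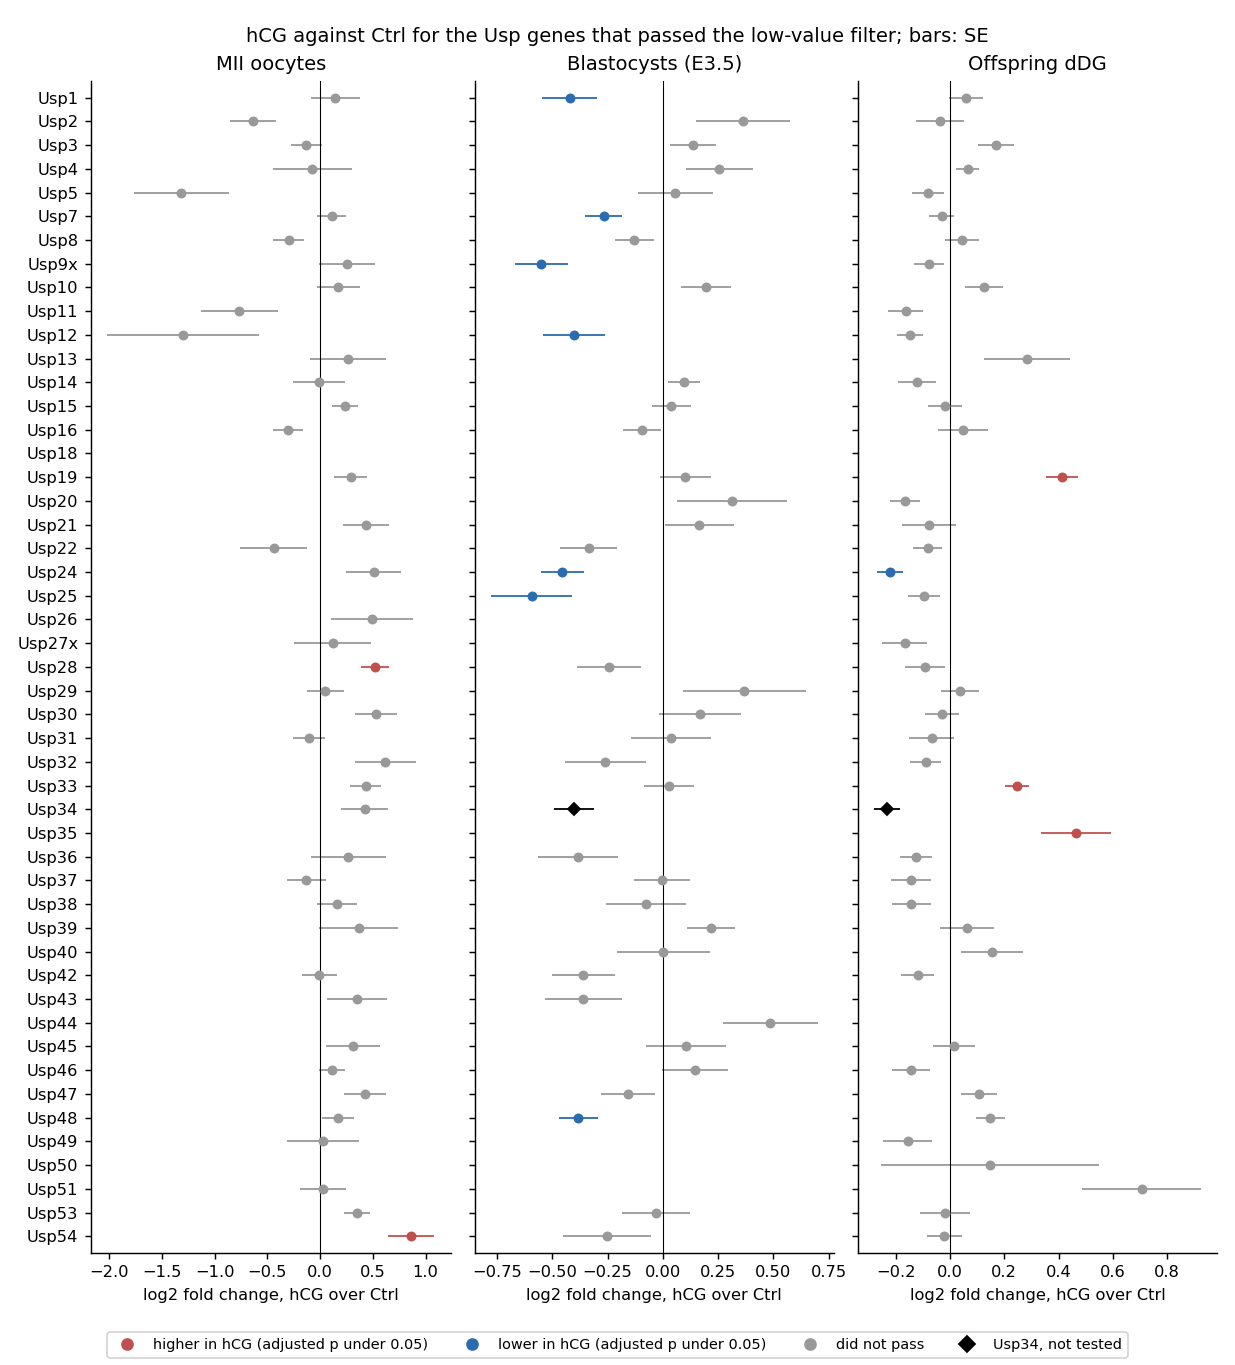
Log2 fold change of hCG over Ctrl (x axis, different ranges per panel) with its SE for each member that passed the low-value filter (rows), in oocytes, blastocysts and dDG. Red and blue points passed an adjusted p of 0.05 as higher or lower in hCG, grey points did not, and the black diamonds mark Usp34 where it was not tested.

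In blastocysts 7 members were lower in hCG and 0 higher: Usp9x, Usp24, Usp48, Usp1, Usp25, Usp7 and Usp12. They were 7 of 39 tested members, not counting Usp34, beside 7.6% of all 10848 genes called lower and 8.68% called higher. The choice of the family used this contrast, so nothing is read from that share. The median log2 fold change of the 39 members was -0.0034, against 0.023 over all genes, with 19 positive and 20 negative. 12 had an unadjusted p under 0.05, beside 30.7% of all genes. No member's groups were apart, as for all genes tested (0%). The direction depends on scaling: on the deposited values with no division by library total, 11 members were called higher in hCG and 0 lower, the median log2 fold change of all genes was 0.49 with 3655 genes called higher and 15 lower, and Usp1, Usp7, Usp12 and Usp48 had positive differences.

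3 of the 7 belong to a list of 7 Usp enzymes of p53, Mdm2 and DNA repair, of which 6 were tested in blastocysts. Beside these, 7.6% of all genes were called lower. Nothing is read from this count, since the list was chosen with earlier results known and the family on this contrast. Usp7, which acts on both p53 and its ligase Mdm2, had lowest, median and highest values of 87.9, 124.0 and 169.7 CPM in hCG, against 82.5, 142.6 and 259.9 CPM in Ctrl. 21 of 28 hCG libraries lay below the Ctrl median (log2 fold change -0.27 ± 0.08, limma adjusted p = 0.0248). Usp1, which with its partner Wdr48 removes ubiquitin from Fancd2 and PCNA, had 26.97, 56.8 and 101.4 CPM in hCG, against 25.9, 68.2 and 140.9 CPM in Ctrl (-0.42 ± 0.13, adjusted p = 0.0179). Usp48, a nuclear enzyme that acts on histone H2A in human cells, had 121.7, 209.3 and 290.2 CPM in hCG, against 144.7, 273.2 and 407.4 CPM in Ctrl (-0.38 ± 0.09, adjusted p = 0.0027). In all 3 genes the highest Ctrl library exceeded the highest hCG library, and the ranges overlapped.

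Usp9x, an X-linked enzyme that acts on Mcl1 and on Smad4 in human cells, had 48.3, 78.9 and 125.1 CPM as lowest, median and highest values in hCG, against 38.1, 108.5 and 217.6 CPM in Ctrl. 25 of 28 hCG libraries lay below the Ctrl median, and the log2 fold change of -0.55 ± 0.12 had an adjusted p of 0.0015. Y-linked transcripts moved with its level. Among libraries with Y-linked transcripts above 50 CPM in sum, Usp9x averaged 73.0 ± 15.2 CPM in hCG (SD, n = 20) and 103.7 ± 35.7 CPM in Ctrl (n = 19). Among the others it averaged 99.2 ± 16.6 CPM in hCG (n = 8) and 156.7 ± 44.1 CPM in Ctrl (n = 9). The first set is mixed: 5 of its 20 hCG libraries also held Xist above 50 CPM, against 0 of its 19 Ctrl libraries. The part of sex-linked transcripts in the Usp9x difference was not tested.

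Usp24, a large enzyme, had 44.0, 61.5 and 79.5 CPM in hCG blastocysts, against 48.1, 76.0 and 136.0 CPM in Ctrl blastocysts. Its log2 fold change was -0.45 ± 0.10 (adjusted p = 0.0015), with 24 of 28 hCG libraries below the Ctrl median. Usp25, an enzyme of innate immune signalling, had 3.4, 10.48 and 24.6 CPM in hCG, against 5.3, 16.7 and 34.7 CPM in Ctrl (-0.59 ± 0.18, adjusted p = 0.0217). Usp12, another enzyme that is activated by Wdr48, had 4.9, 11.1 and 14.5 CPM in hCG, against 3.3, 14.6 and 27.9 CPM in Ctrl (-0.40 ± 0.14, adjusted p = 0.0402). All 28 hCG blastocysts were below the Ctrl median of Usp12.

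Without the 5 hCG libraries that held both Xist and Y-linked transcripts, Usp9x, Usp24, Usp48, Usp1 and Usp25 passed, while Usp7 (-0.24 ± 0.09, adjusted p = 0.0756) and Usp12 (-0.36 ± 0.15, adjusted p = 0.107) did not. With the number of detected genes as a covariate, Usp1 (-0.33 ± 0.14, adjusted p = 0.121) and Usp25 (-0.58 ± 0.20, adjusted p = 0.0653) did not pass, and the other 5 did. Usp22, the histone H2B enzyme of the SAGA complex, was the tested member closest outside the threshold, at 258.2 ± 94.1 CPM in hCG and 316.8 ± 104.2 CPM in Ctrl (-0.34 ± 0.13, adjusted p = 0.0593).

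**Figure D3:**
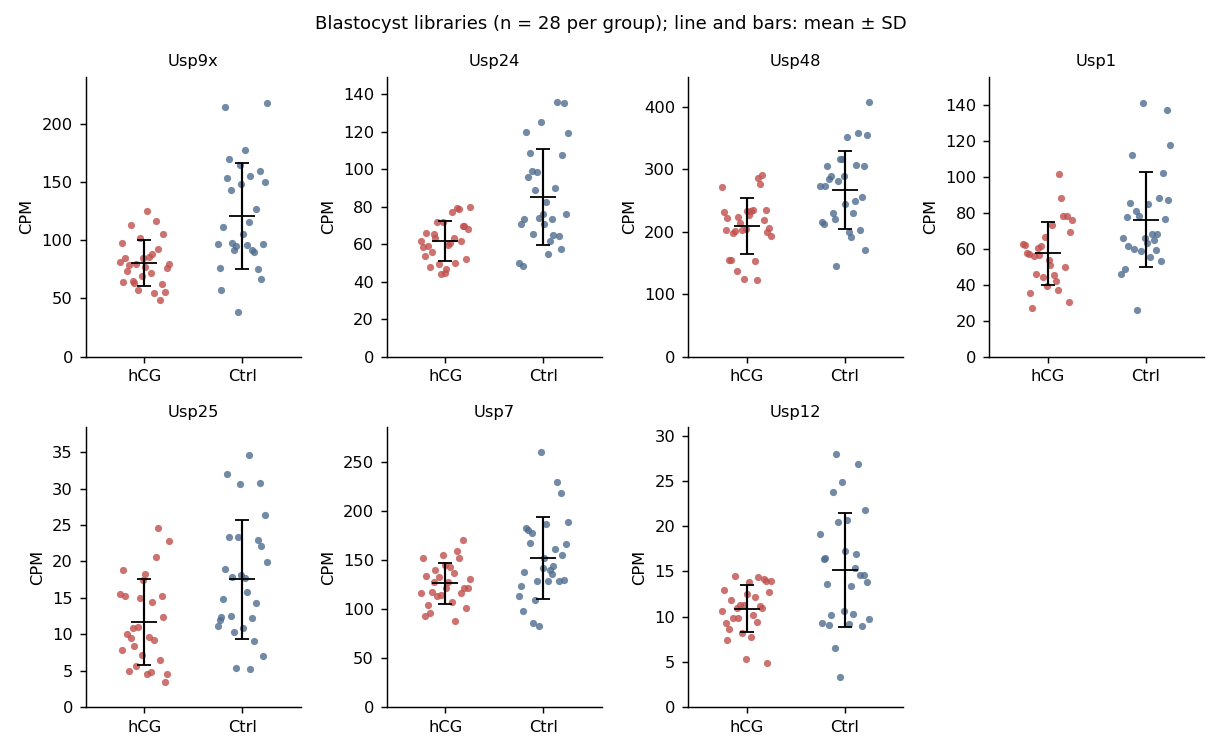
Levels in CPM (y axis, from 0) of the 7 members called in blastocysts, in 28 hCG and 28 Ctrl libraries (x axis); points are libraries, lines and bars the mean ± SD. In each panel the highest Ctrl libraries exceed the highest hCG library, and the groups overlap.

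Of the 7 called members, 3 span at least 100 kb of genome: Usp24 with 130634 bases, Usp25 with 103100 and Usp9x with 102347. Beside them, 6 of the 39 tested members and 1203 of 10788 genes with a span reach 100 kb. The family was chosen on this contrast, so nothing is read from that count. Usp34 spans 187376 bases. Usp29, the longest member with 236662 bases, had a positive difference in blastocysts that did not pass (0.37 ± 0.28, limma adjusted p = 0.38). Across the 39 tested members, Usp34 left out, Spearman's rho between span and log2 fold change was -0.29, beside -0.23 across 10788 genes with a span. The median log2 fold change of all genes was -0.13 for those of at least 100 kb and 0.038 for shorter ones. In oocytes rho was 0.25 across 42 members and 0.18 across all genes, and in dDG -0.092 across 44 members and -0.067 across all genes. These values share libraries and depth and are given as a description; the part of gene length in the results was not tested.

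In the dDG of hCG offspring, Usp19, Usp33 and Usp35 were higher than in Ctrl offspring and Usp24 was lower. They were 4 of 44 tested members: 3 called higher, beside 4.67% of all 13874 genes, and 1 called lower, beside 3.19%, with nothing read from these shares because the family was chosen on this contrast. 10 of the 44 had an unadjusted p under 0.05, beside 23.96% of all genes. The median log2 fold change was -0.03, against 0.005 over all genes, with 18 positive and 26 negative. The differences ran from -0.22 to 0.71 on the log2 scale over the tested members.

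2 of the 3 listed enzymes anchored in mitochondria or endoplasmic reticulum were called higher, beside 4.67% of all genes. Nothing is read from this count, since the list was chosen with earlier results known and the family on this contrast. Usp19, anchored in the endoplasmic reticulum membrane in its longer forms, had 175.1, 192.3 and 211.9 CPM as lowest, median and highest values in hCG dDG, against 139.5, 144.8 and 161.4 CPM in Ctrl dDG. The groups did not overlap, and the log2 fold change was 0.41 ± 0.06 (edgeR, adjusted p = 0.00086; 0.39 ± 0.06 and adjusted p = 0.0022 without hCG 6). Usp35, found at mitochondria in human cells, had 13.6, 16.8 and 18.4 CPM in hCG, against 9.7, 11.4 and 17.4 CPM in Ctrl (0.46 ± 0.13, adjusted p = 0.0386). 1 Ctrl library, Ctrl 1, lay among the hCG values, and the other 5 Ctrl libraries were below every hCG library. The Usp35 call was lost without any library other than Ctrl 1, hCG 1 or hCG 5, with an adjusted p of up to 0.0893 (0.0695 without hCG 6). Usp30, the third of the list and an opponent of Parkin at mitochondria, averaged 36.5 ± 1.7 CPM in hCG and 37.7 ± 3.3 CPM in Ctrl (-0.03 ± 0.06, adjusted p = 0.819).

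Usp33, an enzyme of receptor recycling and of the Robo1 guidance receptor, had 189.0, 192.6 and 208.6 CPM in hCG dDG, against 154.9, 166.8 and 175.0 CPM in Ctrl dDG. The groups did not overlap (0.25 ± 0.05, adjusted p = 0.0047; 0.26 ± 0.05 and adjusted p = 0.0082 without hCG 6). Groups lay apart with hCG higher for 2.38% of all genes, and with hCG lower for 2.13%. Usp20, the closest relative of Usp33, averaged 101.1 ± 5.3 CPM in hCG and 114.7 ± 7.7 CPM in Ctrl, a difference on the other side of 0 that did not pass (-0.17 ± 0.05, adjusted p = 0.0761).

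Usp24 was called in both blastocysts and dDG. DESeq2 also called Usp33 higher in oocytes (adjusted p = 0.0462) and Usp12 lower in dDG (adjusted p = 0.028). In dDG, Usp24 had 102.0, 105.5 and 117.2 CPM in hCG, against 116.1, 126.3 and 130.8 CPM in Ctrl. The groups met only through hCG 4 and the lowest Ctrl library. The log2 fold change was -0.22 ± 0.05 (adjusted p = 0.0117; -0.21 ± 0.05 and adjusted p = 0.0217 without hCG 6). In oocytes it pointed the other way without passing, at 26.5 ± 7.6 CPM in hCG and 18.8 ± 8.2 CPM in Ctrl (0.51 ± 0.26, adjusted p = 0.308). Whether the difference between hCG and Ctrl varied between materials was not tested for any member.

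**Figure D4:**
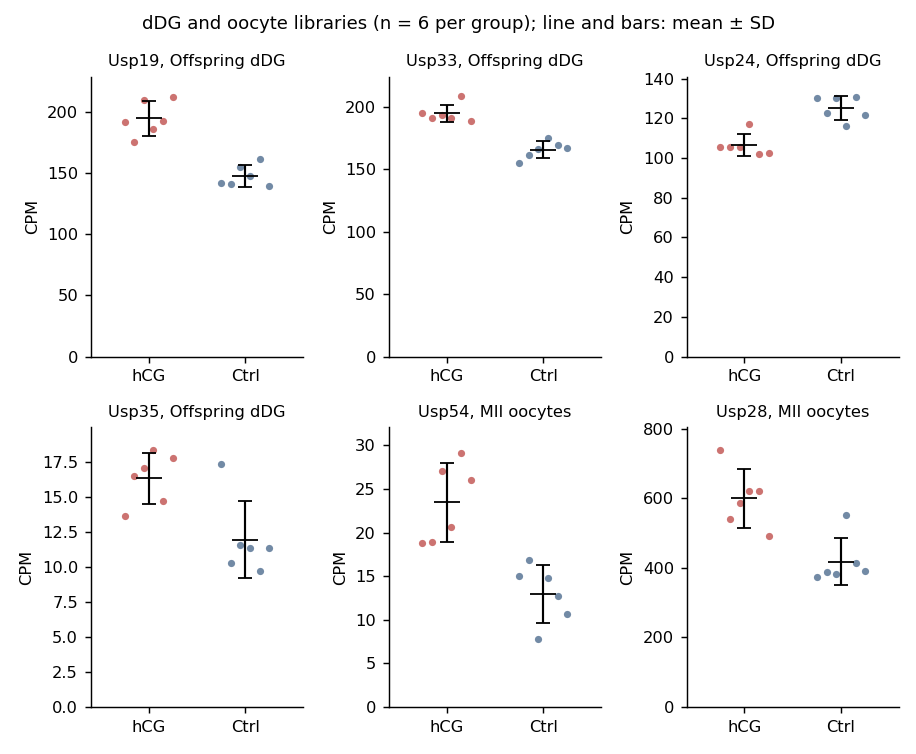
Levels in CPM (y axis, from 0) of the 4 members called in dDG and the 2 called in oocytes, in 6 hCG and 6 Ctrl libraries each (x axis); points are libraries, lines and bars the mean ± SD. Usp19 and Usp33 in dDG and Usp54 in oocytes have groups that do not overlap, and in the Usp35 panel 1 Ctrl library of 17.4 CPM lies among the hCG libraries.

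Members outside these calls are given by role. Of 8 enzymes of ubiquitinated histones (Usp3, Usp16, Usp21, Usp22, Usp27x, Usp44, Usp49 and Usp51), none passed in any material (edgeR and limma), with 7 tested in oocytes, 5 in blastocysts and 7 in dDG and an unadjusted p under 0.05 for 1, 2 and 2 of them. Over all genes the unadjusted share was 18.9%, 30.7% and 23.96% in the same order of materials. DESeq2 called Usp51 higher in dDG (adjusted p = 0.0371). The list does not hold Usp48, called lower in blastocysts. Usp16, which removes ubiquitin from histone H2A, averaged 349.5 ± 53 CPM in hCG oocytes and 428.1 ± 58.0 CPM in Ctrl oocytes (-0.31 ± 0.14, adjusted p = 0.241). Usp51 in dDG averaged 2.54 ± 0.60 CPM in hCG and 1.57 ± 0.38 CPM in Ctrl (0.71 ± 0.22, adjusted p = 0.0607). None of Usp5, Usp13 and Usp14, tied to the proteasome or to free ubiquitin chains, passed with all libraries. Usp13 in dDG averaged 12.1 ± 1.4 CPM in hCG and 10.03 ± 3.1 CPM in Ctrl (0.28 ± 0.16, adjusted p = 0.293), and without Ctrl 5 it was called higher (0.46 ± 0.11, adjusted p = 0.02). Usp14, which sits on the proteasome, averaged 360.4 ± 45.3 CPM in hCG blastocysts and 334.6 ± 72.9 CPM in Ctrl blastocysts (0.10 ± 0.07, adjusted p = 0.393). The spliceosome members Usp4, Usp15 and Usp39 did not pass; Usp15 averaged 755.2 ± 90.5 CPM in hCG oocytes and 637.7 ± 80.5 CPM in Ctrl oocytes (0.24 ± 0.12, adjusted p = 0.303). Among the Wnt and growth factor members, Usp36, a nucleolar enzyme, averaged 8.22 ± 2.94 CPM in hCG blastocysts and 11.9 ± 6.2 CPM in Ctrl blastocysts (-0.38 ± 0.18, limma adjusted p = 0.134). With edgeR on estimated reads Usp36 was called lower (-0.54 ± 0.19, adjusted p = 0.0449). Usp8, an endosomal enzyme, averaged 83.5 ± 14.7 CPM in hCG oocytes and 101.5 ± 12.4 CPM in Ctrl oocytes (-0.30 ± 0.15, adjusted p = 0.281). Usp46, a relative of Usp12 that acts at synapses, averaged 74.2 ± 6.4 CPM in hCG dDG and 82.8 ± 6.5 CPM in Ctrl dDG (-0.14 ± 0.07, adjusted p = 0.222). Usp18, the interferon-induced enzyme that removes Isg15 rather than ubiquitin, was at 0 CPM in all 12 oocyte libraries and averaged 0.80 CPM in hCG dDG and 0.43 CPM in Ctrl dDG, below the filter.

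The filter removed Usp18, Usp20, Usp25, Usp35, Usp40, Usp44 and Usp50 in oocytes. In blastocysts it removed Usp11, Usp13, Usp18, Usp26, Usp27x, Usp35, Usp49, Usp50 and Usp51, and in dDG Usp18, Usp26, Usp43 and Usp44. Usp26, known mostly from testis, was at 0 CPM in all 12 dDG libraries and averaged 7.39 ± 3.77 CPM in hCG oocytes and 5.33 ± 2.25 CPM in Ctrl oocytes. Reads shared with related genes or pseudogenes cannot be traced in these tables.

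The same member often stood at very different levels in the 3 materials. These levels come from tables that were made and scaled separately and carry no test. The mean of the Ctrl libraries was highest in oocytes for 23 members, in dDG for 22 and in blastocysts for 4, and for 46 of 49 members the hCG means were highest in the same material. Every oocyte library was above every library of the other tables for 14 members, every dDG library for 11 and every blastocyst library for 2. Usp28 averaged 417 CPM in Ctrl oocytes, 15.3 CPM in Ctrl blastocysts and 22.5 CPM in Ctrl dDG. Usp46 averaged 600.2 CPM, 24.1 CPM and 82.8 CPM in the same order, and Usp2 565 CPM, 18.7 CPM and 97.2 CPM. At the other end, Usp11, an X-linked enzyme of DNA repair, averaged 5.42 CPM in Ctrl oocytes, 1.01 CPM in Ctrl blastocysts and 207.3 CPM in Ctrl dDG. Usp20 averaged 0.74 CPM, 2.06 CPM and 114.7 CPM, and Usp22 14.7 CPM, 316.8 CPM and 357.5 CPM. The 2 members that stood apart in blastocysts were Usp14, with 28.4 CPM in Ctrl oocytes, 334.6 CPM in Ctrl blastocysts and 171.5 CPM in Ctrl dDG, and Usp48, with 64.0 CPM, 266.7 CPM and 88.2 CPM. Usp34 averaged 211.9 CPM, 109.8 CPM and 140.4 CPM, so its highest mean was 1.93 times its lowest.

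**Figure D5:**
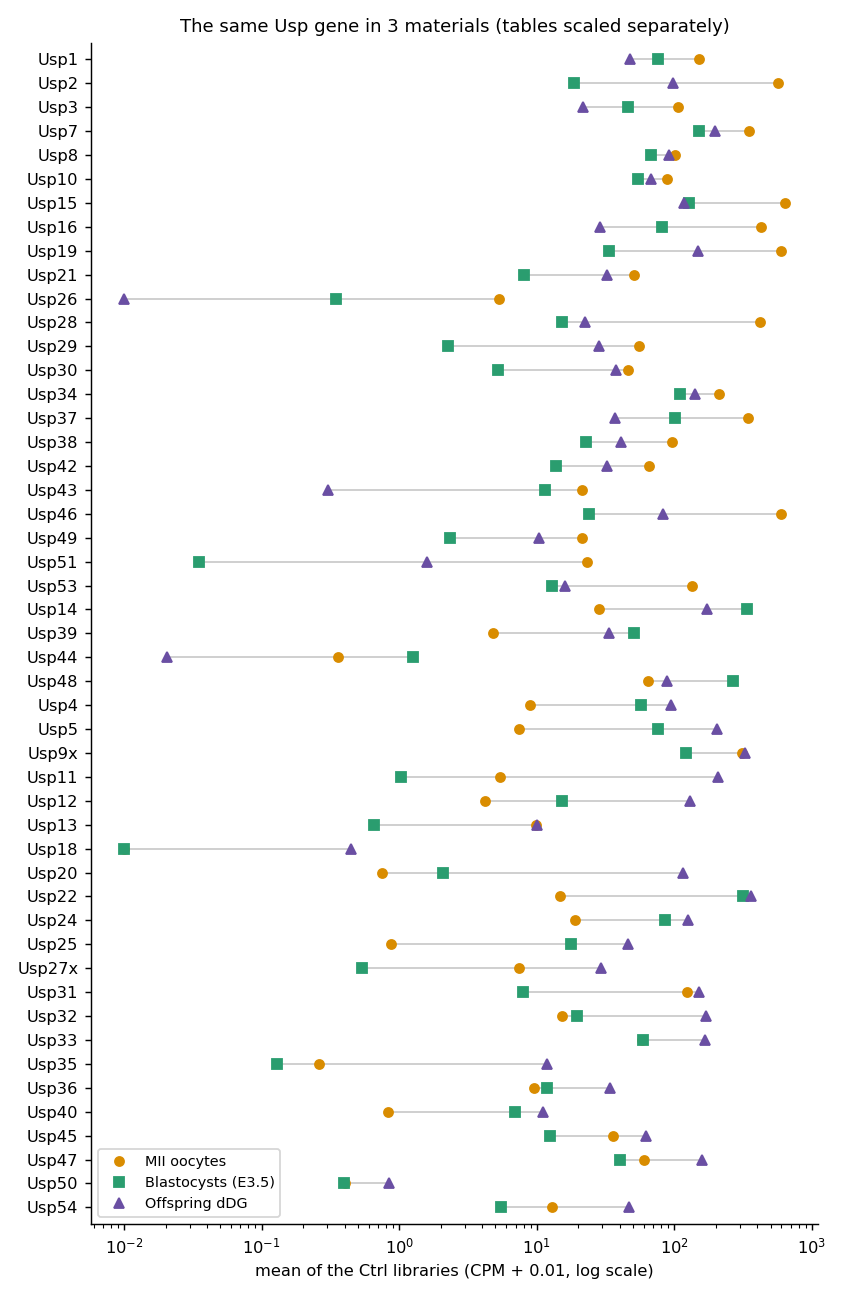
Mean level of each of the 49 members in the Ctrl libraries of oocytes, blastocysts and dDG (x axis, CPM plus 0.01 on a log scale), with members in rows ordered by the material in which they are highest. Of the 49 members 23 are highest in oocytes, 4 in blastocysts and 22 in dDG; the tables were scaled separately, and no test compares them.

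The dDG table gives RefSeq transcripts, whose split is the authors' estimate. It lists 69 transcripts of the members, 35 members having 1 and 14 having several. Of 56 transcripts tested, 1 passed, the single Usp24 transcript NM_183225 (lower in hCG, edgeR adjusted p = 0.0206), beside 1.24% of all 18625 transcripts called lower; 0 were higher, beside 2.02%, with nothing read from these shares. Usp19, called higher as a gene, was carried by 3 main transcripts. NM_001168371 averaged 91.7 ± 13.8 CPM in hCG and 76.0 ± 8.8 CPM in Ctrl, NM_001168373 69.0 ± 6.7 CPM in hCG and 45.0 ± 11.3 CPM in Ctrl, and NM_027804 31.8 ± 5.7 CPM in hCG and 26.4 ± 4.2 CPM in Ctrl. All 3 had positive differences, the largest of them 0.63 ± 0.16 for NM_001168373 (adjusted p = 0.0537). Both main Usp33 transcripts also had positive differences that did not pass, and NM_133247 held 70.6% ± 4.1 of the gene in hCG and 72.8% ± 5.6 in Ctrl. Usp15 showed no difference as a gene past the threshold, at 114.8 ± 4.9 CPM in hCG dDG and 117.5 ± 11.04 CPM in Ctrl dDG, and its estimated split between 2 transcripts is described without a test. NM_027604 held 17.98% to 44.97% of Usp15 in hCG (mean 32.5%) and 37.8% to 61.0% in Ctrl (mean 47.0%), and its own level did not pass the test (-0.54 ± 0.16, adjusted p = 0.0912). Usp14 was split almost evenly, NM_021522 holding 48.8% ± 6.0 in hCG and 51.3% ± 3.1 in Ctrl.

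Other deubiquitinase families give the setting of the Usp values. Of all genes tested, 1.33% were called higher and 2.67% lower in oocytes, 8.68% and 7.6% in blastocysts, and 4.67% and 3.19% in dDG. Nothing is read from the family counts, since these lists were chosen with earlier results known. In oocytes no gene of these families passed with edgeR. An unadjusted p under 0.05 was found for 3 of 10 tested Otu enzymes, 3 of 10 Jamm proteins, 1 of 5 Mindy and Zup1 enzymes, 0 of 5 Uch enzymes and 0 of 3 Josephin enzymes. The share over all genes was 18.9%. DESeq2 called 1 gene of these families, Cops5, lower. In blastocysts 3 of 10 tested Otu enzymes were lower in hCG: Otud1 with 45.8 ± 14.2 CPM in hCG and 66.2 ± 19.2 CPM in Ctrl (-0.57 ± 0.12, adjusted p = 0.0015), Vcpip1 (-0.62 ± 0.15) and Otud4 (-0.39 ± 0.12). 2 of 4 Uch enzymes were higher, Uchl5 of the proteasome (0.31 ± 0.09) and Uchl1 (0.83 ± 0.29); edgeR on estimated reads called Uchl5 only. 4 of 12 Jamm proteins were higher (of these, edgeR on estimated reads called Eif3h only), the proteasome subunit Psmd7 (0.32 ± 0.11), the COP9 signalosome subunit Cops6 (0.36 ± 0.13) and the initiation factor subunits Eif3h (0.25 ± 0.06) and Eif3f (0.23 ± 0.08). In dDG, Otud5 was higher in hCG, at 135.5 ± 7.8 CPM in hCG and 116.0 ± 3.0 CPM in Ctrl (0.24 ± 0.05, adjusted p = 0.0059). Otud4 (-0.19 ± 0.05) and Tnfaip3, the NF-kappaB inhibitor A20 (-0.63 ± 0.14, adjusted p = 0.0144), were lower. Otud4 was thus called lower in both blastocysts and dDG.

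Of the partner proteins of Usp enzymes, 0 of 18 tested passed in dDG and 0 of 15 in oocytes with edgeR, where 4 and 1 had an unadjusted p under 0.05, and DESeq2 called 0 in both. The unadjusted share over all genes was 23.96% in dDG and 18.9% in oocytes. Of all blastocyst genes, 8.68% were called higher and 7.6% lower. In blastocysts 4 of 18 passed, of which edgeR on estimated reads called Stam2 and Atxn7 only: Stam2, the endosomal partner of Usp8 (0.41 ± 0.11), Wdr20rt (0.81 ± 0.24) and Mdm2, the p53 ligase that Usp7 acts on (0.37 ± 0.13), were higher in hCG. Atxn7, which joins Usp22 in the SAGA complex, was lower, at 10.7 ± 3.1 CPM in hCG and 18.1 ± 10.0 CPM in Ctrl (-0.59 ± 0.17, adjusted p = 0.0116). Among proteins with a Usp domain under another symbol, Uspl1 was lower in dDG, at 53.6 ± 1.9 CPM in hCG and 62.2 ± 4.1 CPM in Ctrl (-0.20 ± 0.06, adjusted p = 0.0387). Cyld and Pan2 did not pass in any material, nor did the 3 Josephin enzymes. Of the Mindy and Zup1 enzymes, Zup1 was lower in hCG blastocysts (-0.33 ± 0.11, limma adjusted p = 0.0374) and Fam63a, also named Mindy1, higher in hCG dDG (0.34 ± 0.10, adjusted p = 0.0484).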

How the data were processed

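RNA libraries of 80 samples were used; 44 bisulfite libraries were not analysed here. The submitters' processing notes name STAR 2.7.6a, HTSeq 0.12.4, Bowtie2 and TopHat among their tools, and the builds mm10 and GRCm38; which tool made which table is not given in the sources used here. The deposited oocyte table holds raw counts per gene symbol. The deposited dDG table holds expected counts per RefSeq transcript, summed here per symbol and rounded. The deposited blastocyst table holds a signal: the values behave as estimated counts times a factor per library (89.0% to 93.5% of a library's values were whole multiples of 1 step, tolerance 0.005), and the basis of the factor is not given. Division by the column total (CPM) removes it, and division by the step gave estimated reads for depth and filtering.

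The oocyte and dDG tests used the robust quasi-likelihood F test of edgeR 4.0.16 in R 4.3.3, after TMM scaling and filterByExpr (10 counts, 15 in total). Blastocysts were tested with limma 3.58.1 (trend, robust) on log2(TMM-scaled CPM + 1). Log2 fold changes are hCG over Ctrl with SE, and in blastocysts they are on the log2(CPM + 1) scale, which understates changes of low genes. The p-values are two-sided, with Benjamini-Hochberg adjustment across a whole table and a threshold of 0.05. CPM in the text carry no TMM factor. Fits were tested on simulated data.

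The members, role lists and lists of related genes were chosen with earlier results of these data known. Values are given for Usp34, for members with an adjusted p under 0.05, for those whose groups do not overlap, for members of each role list and for up to 4 called genes of each related list. A few members outside the threshold (Usp22 and Usp51, and in oocytes Usp2, Usp5, Usp11 and Usp12) and examples of a role list were chosen after their values were seen. Levels per kilobase had been planned, but no transcript lengths were used, so levels are compared within a gene only. A list of 4 related genes is not reported here. 1 oocyte column per group carries another kit name in its description and was matched by title. The labels do not say whether replicate numbers pair samples, and the main tests used no pairing. Of the same-numbered pairs, 2 of 6 in oocytes, 3 of 28 in blastocysts and 1 of 6 in dDG had correlated deviations above 0.1. Alternatives were DESeq2 1.42.0, other scaling, filters and pseudocounts, a replicate block, covariates and left-out libraries.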

Additional observations from a re-analysis of the deposited data

Results flagged for a closer look

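Among 16 groups of 6 libraries looked at (the members called in oocytes and dDG, and Usp34), 4 had 1 library set apart from the other 5 by a wide gap. The gap rule is set to mark about 1 group in 20 by chance. The groups were picked by their calls or for Usp34, so nothing is read from the count. In oocytes, Usp28 was highest in Ctrl 4, at 552.7 CPM. In dDG, Usp24 was highest in the library hCG 4, at 117.2 CPM, Usp33 in hCG 5, at 208.6 CPM, and Usp35 in Ctrl 1, at 17.4 CPM. Usp34 was higher in hCG than in Ctrl in oocytes (log2 fold change 0.42, not past the threshold), while the values that chose the family were lower in hCG blastocysts and dDG; the difference between materials was not tested.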

How the results depend on the processing

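In oocytes, against 2 members called higher and 0 lower, DESeq2 called 4 higher, no low-count filter gave 1 (Usp54 adjusted p = 0.0506), leaving out Ctrl 2 and Ctrl 4 gave 4, and leaving out 1 library gave 0 to 4 higher and 0 to 1 lower (Usp2, without Ctrl 4 or hCG 2). In blastocysts, unscaled deposited values gave 11 higher and 0 lower and positive log2 fold changes for Usp1 (0.0068), Usp12 (0.0058), Usp34 (0.030), Usp48 (0.051) and Usp7 (0.17); the construction keeps the factor per library, which moved the median of all genes to 0.49. The other 7 blastocyst alternatives gave 5 to 8 lower. Without TMM factors Usp7 (adjusted p = 0.0677) and Usp12 (0.0657) did not pass. In dDG, against 3 higher and 1 lower, DESeq2 called 3 lower (Usp24, Usp12 and Usp20), and leaving out 1 library gave 2 to 4 higher and 1 to 2 lower (2 without Ctrl 5). Usp19 and Usp33 passed under every alternative run. The replicate block gave 0 higher and 1 lower in oocytes. In dDG it gave 0 lower (Usp24, edgeR adjusted p = 0.0547), and in blastocysts Usp12 did not pass (limma adjusted p = 0.0577). Of the hCG libraries, 2 of 6 in oocytes and 0 of 6 in dDG correlated best with the Ctrl library of their own number. Whether same-numbered libraries share a batch or day is not given in the labels, and these values cannot settle it. For causes other than the named construction, the cause was not tested. Members under the filter were low at this depth and were left out of the main tests, 7 in oocytes, 9 in blastocysts and 4 in dDG.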
